A study of Mus musculus with 28 samples.

Results

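Low oxygen in chondrocyte cultures was examined by comparing cultures kept at 0.5% O2 (hypoxic) with cultures kept at 21% O2 (normoxic) under otherwise the same chondrocyte protocol. Members were taken from the labels: all 3 libraries of the hypoxic chondrocyte group and all 4 of the normoxic chondrocyte group, 7 of the 28 libraries of the series. The series used O9-1 cells, an established mouse line of cranial neural crest cells, kept proliferating or differentiated towards chondrocytes, osteoblasts or smooth muscle, each at both oxygen levels. Polyadenylated RNA was sequenced, and reads were counted per gene. By the series design, the question was how far these cells differentiate under normoxia and hypoxia.

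Both chondrocyte groups spent 3 days in osteogenic medium and then 7 days as micromasses, dense drops of cells, on matrigel-coated plastic. The chondrogenic medium held 5% FCS, insulin-transferrin-selenium, 0.1 µM dexamethasone, 10 ng/ml TGF-beta3 and 50 ng/ml BMP-2, so both growth factors were present in the normoxic and the hypoxic group alike. Osteoblast cultures, used for comparison, had 10 days of osteogenic medium with 10% FCS, beta-glycerophosphate, 0.1 µM dexamethasone and 100 ng/ml BMP-2. Smooth muscle cultures had 3 days in medium with 10% FCS and no added factor, and proliferating cultures were in STO-conditioned medium with 15% FCS, bFGF and LIF. Each of these was also kept at 21% O2 (4 libraries) or 0.5% O2 (3 libraries). All libraries come from 1 cell line, and the labels number the replicates without saying whether they were separate cultures. The p-values below therefore measure only the spread between these libraries, which may be technical.

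When oxygen is scarce, prolyl hydroxylases no longer mark the alpha subunits of hypoxia-inducible factors (HIF) for degradation by the von Hippel-Lindau protein. The stabilised factors bind hypoxia response elements and raise genes for glucose uptake, glycolysis, blood vessel growth and collagen hydroxylation. Cartilage has no blood vessels, and growth plate chondrocytes normally live at low oxygen and depend on HIF1A. Chondrocytes are recognised by SOX9 and its partners SOX5 and SOX6 and by a matrix of type II, IX and XI collagen, aggrecan and link protein.

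The 7 libraries held between 25998284 and 34444072 counted reads each, and between 17924 and 19121 genes with at least 1 read. Mitochondrially encoded transcripts took 0.649% to 0.776% of the reads in the normoxic libraries and 0.502% to 0.67% in the hypoxic ones. Libraries of a group were not copies of each other. Among the normoxic libraries, replicates 2 and 3 lay closest together (a mean squared deviation of 8.58 times the counting noise per gene) and every other pair was at 27.8 to 36.5 times. In the hypoxic group, replicates 2 and 3 were at 9.93 times, and the pairs with replicate 1 were at 28.1 and 31.6 times. Levels below are CPM, counts per 1000000 after TMM scaling of the 7 libraries, which is not corrected for gene length.

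The chondrocyte label was checked against 22 chondrocyte genes. In the normoxic group Col2a1, Acan, Hapln1, Col11a1 and Sox9 were each above 100 CPM in all 4 libraries, while Matn1, Cnmd, Chad, Snorc, Epyc and Ucma were below 1 CPM in all 7 libraries. Compared with normoxic proliferating cultures, all 16 members that could be tested were higher in normoxic chondrocyte cultures (background 74.9% of 14360 genes called, 37.7% higher). Members near 0 in proliferating cultures entered the test only through the chondrocyte group, such as Col2a1 (at most 0.07 CPM there), Col9a1 (0 CPM) and Hapln1 (at most 0.232 CPM). For them a higher level was fixed by the filter, so this count is no support for the label. The type I collagen gene Col1a1 was at 33099 to 39931 CPM in the same libraries, and the osteoblast factor Sp7 at 106 to 209 CPM, so osteoblast genes were present beside the cartilage genes. Compared with normoxic osteoblast cultures, 11 of 16 chondrocyte genes were higher and 0 lower, and 13 of 16 osteoblast genes were higher and 2 lower (background 28.6% higher and 31.1% lower of 14319 genes). Normoxic osteoblast replicate 4 stood apart from its group in such genes. On a scale of all 28 libraries, its Col2a1 was at 775 against 35.6 to 43.6 CPM and its Sp7 at 45.4 against 0.67 to 1.36 CPM. These counts include it. Sema4f and Chrdl1, named with the comparison with earlier results of these data known, encode a semaphorin and a BMP antagonist and are no chondrocyte markers.

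Of 14205 genes tested, 3157 (22.2%) were called at an adjusted p under 0.05 by edgeR's quasi-likelihood test with Benjamini-Hochberg adjustment. Of these, 1482 (10.4% of the genes tested) were higher and 1675 (11.8%) lower at 0.5% O2. Changes were often modest, since 891 called genes (6.27%) differed 2-fold or more, 335 of them higher (2.36%) and 556 lower (3.91%). Without hypoxic replicate 3 the called genes numbered 2091. The hypoxic and normoxic libraries did not overlap for 4521 genes (31.8%), 2192 with the hypoxic libraries above (15.4%) and 2329 below (16.4%). Scaling by library size alone called 3427 genes, of which 31.8% were higher against 46.9% under TMM, as it moved the median log2 fold change of all genes from -0.01 to -0.08. In the authors' deposited table of the same comparison, all 3157 genes had the same sign of change, and 3147 of them had a p-value under 0.05.

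**Figure D1:**
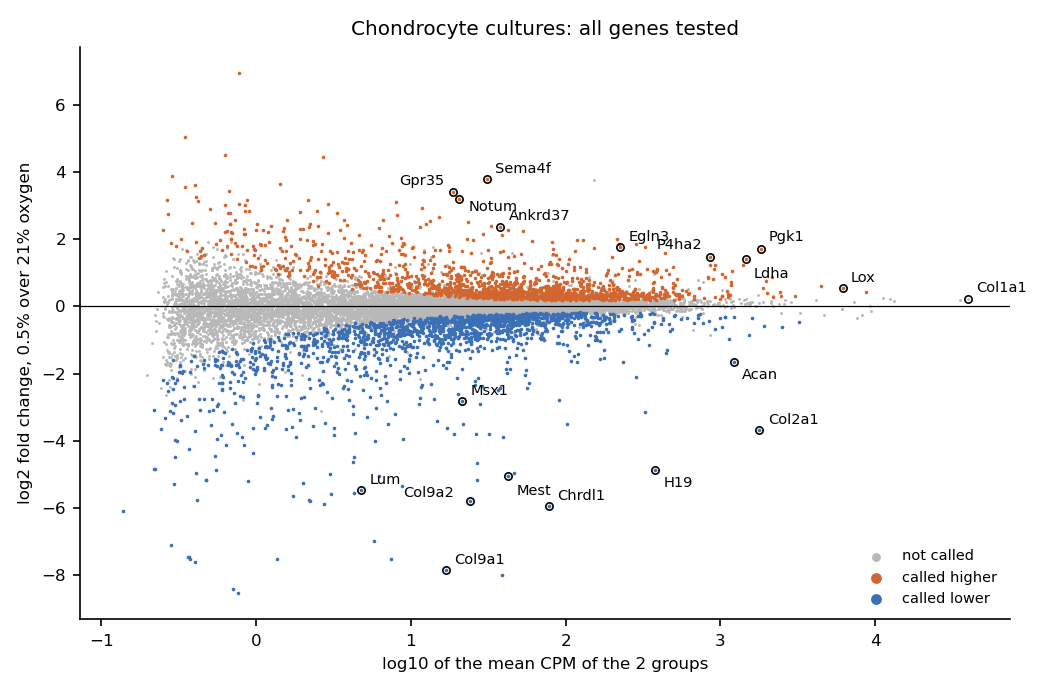
Each point is 1 of 14205 genes, with the log10 of its mean CPM over the normoxic and hypoxic chondrocyte groups on the x axis and its log2 fold change (0.5% over 21% O2) on the y axis. Genes called higher are orange and genes called lower are blue, and the falls of Chrdl1 (-5.94), Col9a1 (-7.85) and Col2a1 (-3.68) lie well below the rises of Pgk1 (1.70) and Sema4f (3.79).

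By the naming rule, the 10 largest rises were Sema4f, Gpr35, Notum, Fibcd1, S100a7a, Klk8, Prelid2, Gpr141, Clca3a1 and Celsr1. The rule took called genes with a mean of at least 10 counts in both groups and libraries that did not overlap. Fibcd1, Klk8, Gpr141 and Clca3a1 had only 52, 75, 72 and 57 reads in the normoxic libraries together. Gpr35, a G protein-coupled receptor gene, was at 3.36, 4.05, 2.01 and 3.51 CPM in the normoxic libraries and at 32.7, 35.8 and 34.4 CPM in the hypoxic ones. Each hypoxic library was far above each normoxic library, and the log2 fold change was 3.41 (SE 0.18, adjusted p = 7.72e-07). Notum, which encodes a secreted enzyme that inactivates WNT proteins, was at 6.23, 3.67, 3.07 and 2.89 CPM at 21% O2 and at 26.8, 41.3 and 41.9 CPM at 0.5% O2 (log2 fold change 3.20, SE 0.28, adjusted p = 0.000189). S100a7a was uneven among the hypoxic libraries, with 26.8 CPM in replicate 1 against 6.53 and 9.58 CPM in the others (log2 fold change 3.11, adjusted p = 0.00982). Sema4f, at 3.79, is described with the semaphorins, and the remaining 6 lay between 2.78 for Celsr1, an atypical cadherin of planar cell polarity, and 3.16 for Fibcd1.

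The 10 largest falls by the same rule were Chrdl1, Col9a2, Fmo1, Rtl3, Mest, F13a1, H19, Dcn, Matn4 and Pi15. H19, an imprinted long noncoding RNA, was at 641, 714, 815 and 762 CPM in the normoxic libraries and at 33, 18.4 and 23 CPM in the hypoxic ones. Its log2 fold change was -4.88 (SE 0.22, adjusted p = 4.74e-06), with a wide gap between the groups. Mest, also imprinted, was at 46.8, 87.8, 97.2 and 98.2 CPM against 1.99, 3.63 and 1.93 CPM (log2 fold change -5.05, SE 0.40, adjusted p = 0.000343). Dcn, which encodes the small proteoglycan decorin, was at 31, 70.4, 70.2 and 35.3 CPM against 1.18, 2.04 and 2.93 CPM (log2 fold change -4.66, SE 0.52, adjusted p = 0.00171). Col9a2 and Matn4 in this set are cartilage matrix genes and are taken up with the cartilage list. Fmo1 was not called by limma-voom (adjusted p = 0.0724), and Rtl3 was not called with the replicate number as a block (adjusted p = 0.0701).

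Ranked by the difference in CPM, the largest rises included those of the collagen cross-linking enzyme Lox, Pgk1, tenascin-W (Tnn) and Ldha. Lox was at 4284, 4769, 5275 and 5687 CPM at 21% O2 and at 8403, 6741 and 6821 CPM at 0.5% O2, which is a log2 fold change of 0.55 (SE 0.12, adjusted p = 0.00541). The largest falls by this measure were those of Col2a1, Acan, Col6a1, Col6a2 and Spp1. The call of Spp1 was lost under 3 of 15 alternatives, among them without hypoxic replicate 1 or 3 (adjusted p up to 0.08).

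The HIF pathway genes were ordered from the factors to their regulators. Hif1a, the alpha subunit that carries most of the acute response, was at 179, 199, 223 and 275 CPM at 21% O2 and at 210, 199 and 189 CPM at 0.5% O2. The groups overlapped, and its log2 fold change of -0.13 (SE 0.13) was not called (adjusted p = 0.525). Epas1, which encodes HIF2A, was below 0.3 CPM in all 7 libraries and was not tested. Hif3a was at 22.5, 33.7, 34.5 and 45.1 CPM against 31.1, 12.7 and 11.6 CPM and was not called (adjusted p = 0.214). It was called lower when hypoxic replicate 1, the one that lay among the normoxic values, was left out (adjusted p = 0.00916).

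Among the oxygen sensors, the prolyl hydroxylase genes Egln1 and Egln3 rose, while Egln2, Vhl and Hif1an were not called. Egln3 was at 60.2, 124, 116 and 114 CPM in the normoxic libraries and at 364, 330 and 346 CPM in the hypoxic ones. Normoxic replicate 1 was lowest, all hypoxic libraries were above all normoxic ones, and the log2 fold change was 1.75 (SE 0.24, adjusted p = 0.0028). Egln1 was at 121, 169, 166 and 205 CPM against 360, 330 and 366 CPM (log2 fold change 1.09, SE 0.15, adjusted p = 0.0012). Arnt2, a partner subunit, fell by 0.46 on the log2 scale (adjusted p = 0.00942), and was not called when all 8 groups shared the fit (adjusted p = 0.103). Of 9 members tested, 2 rose and 1 fell, against 10.4% higher and 11.8% lower among all genes, and the share that fell is near that background.

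Of 30 hypoxia response genes, 23 rose and 0 fell at 0.5% O2, against the background of 10.4% called higher and 11.8% called lower, and the median log2 fold change was 1.20 against -0.01 over all genes tested. The hypoxic libraries lay above all normoxic ones for 24 members and below for 1 (background 15.4% and 16.4%). Between 22 and 25 members were called higher when any 1 library was left out. Vegfa, the main vessel growth factor, was at 215, 214, 205 and 217 CPM in the normoxic libraries and at 431, 463 and 483 CPM in the hypoxic ones. The libraries of each group lay close together and apart from the other group, with a log2 fold change of 1.11 (SE 0.06, adjusted p = 9.47e-07). Ankrd37, a direct HIF1A target, was at 9.06, 13.6, 12.5 and 14 CPM against 77.1, 52.6 and 60.9 CPM (log2 fold change 2.37, SE 0.17, adjusted p = 2.57e-05). Ak4, a mitochondrial adenylate kinase, was at 13.9, 16.5, 15.3 and 12.5 CPM against 73.5, 68.5 and 67.8 CPM (log2 fold change 2.26, SE 0.09, adjusted p = 8.92e-08). Both genes were separated between the groups by a wide margin.

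Car9, a membrane carbonic anhydrase, rose from a low level, with 0.974, 1.83, 1.37 and 1.69 CPM at 21% O2 and 4.86, 7.12 and 5.82 CPM at 0.5% O2 (log2 fold change 2.02, SE 0.24, adjusted p = 0.000145). Bnip3, which directs mitochondria to autophagy, was at 142, 213, 197 and 318 CPM against 676, 626 and 663 CPM (log2 fold change 1.59, SE 0.25, adjusted p = 0.00501). Ndrg1, a stress-induced gene, was at 112, 144, 137 and 199 CPM against 612, 412 and 483 CPM (log2 fold change 1.76, SE 0.21, adjusted p = 0.00121). In each of these genes the hypoxic libraries lay above all normoxic ones. Among normoxic libraries, replicate 4 was highest for Bnip3 and Ndrg1 and replicate 1 was lowest. The mitochondrial protein gene Fam162a rose too, with a log2 fold change of 1.85 (SE 0.11, adjusted p = 3.11e-06).

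The 7 members not called were Car12, Adm, Ddit4, Stc2, Pfkfb4, Bhlhe40 and Selenbp1. Adm, which encodes the vasodilator adrenomedullin, was at 8.65, 28.1, 28.4 and 24.3 CPM against 122, 37.6 and 43.4 CPM. Hypoxic replicate 1 stood well above the other hypoxic libraries, and the adjusted p was 0.125 in spite of a log2 fold change of 1.60 (SE 0.60). Pfkfb4 lay in the other direction, with 9.99 to 15 CPM at 21% O2 and 8.99 to 9.98 CPM at 0.5% O2 (log2 fold change -0.40, adjusted p = 0.101).

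**Figure D2:**
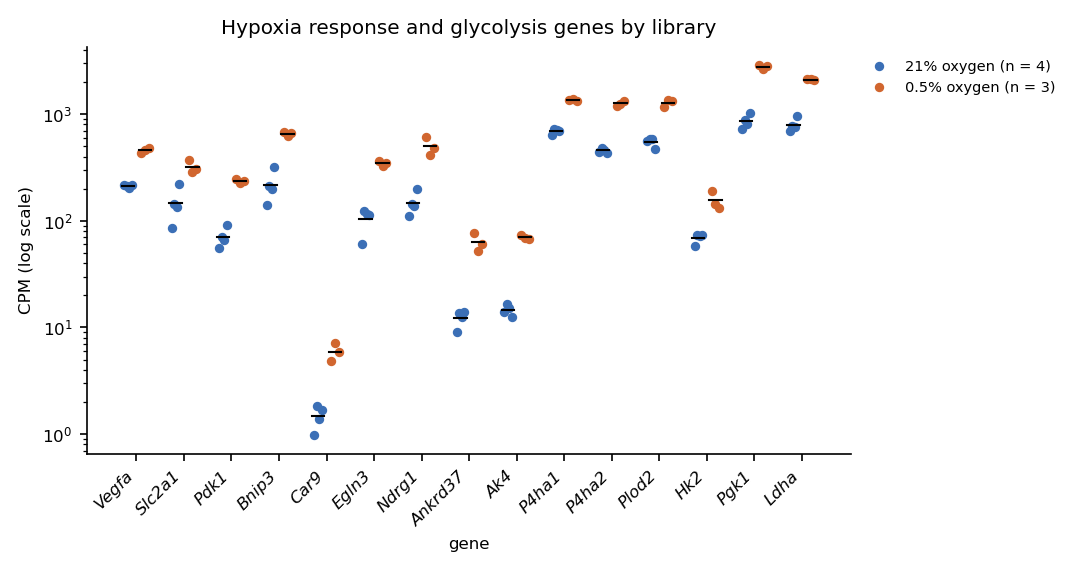
CPM on a log axis for 15 hypoxia response and glycolysis genes, with 1 point per library (blue for the 4 normoxic libraries, orange for the 3 hypoxic ones) and a bar at each group mean. The groups do not overlap for any gene shown, from Vegfa (205 to 217 against 431 to 483 CPM) to Ldha (695 to 959 against 2083 to 2129 CPM).

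Of 22 glucose transport and glycolysis genes, 14 rose and 1 fell (all genes 10.4% higher and 11.8% lower), with a median log2 fold change of 1.09. Slc2a1 and Pdk1 are also members of the hypoxia response list. Pgk1, which makes ATP in the payoff phase of glycolysis, was at 721, 880, 807 and 1023 CPM at 21% O2 and at 2861, 2652 and 2856 CPM at 0.5% O2 (log2 fold change 1.70, SE 0.11, adjusted p = 1.59e-06). Ldha, which turns pyruvate into lactate, was at 695, 779, 752 and 959 CPM against 2129, 2129 and 2083 CPM (log2 fold change 1.41, SE 0.10, adjusted p = 4.06e-06). Hypoxic levels were nearly level across replicates, while normoxic replicate 4 was highest for both genes. Hk2, which traps glucose in the cell as glucose 6-phosphate, was at 57.8, 73.5, 71.6 and 73.5 CPM against 192, 145 and 131 CPM (log2 fold change 1.18, SE 0.14, adjusted p = 0.000394).

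Pdk1, a kinase that inhibits pyruvate dehydrogenase, was at 55.6, 70.9, 66.5 and 91.9 CPM against 244, 225 and 235 CPM (log2 fold change 1.72, SE 0.14, adjusted p = 8.52e-05). Slc2a1, the widespread glucose transporter GLUT1, was at 86.2, 143, 134 and 219 CPM against 369, 288 and 303 CPM, with normoxic replicate 4 the closest to the hypoxic group. Its call was close to the threshold (log2 fold change 1.14, SE 0.30, adjusted p = 0.0428) and was lost under 6 of 15 alternatives, with adjusted p up to 0.133. Pfkp, a phosphofructokinase, rose with a log2 fold change of 1.46 (SE 0.08, adjusted p = 7.19e-07), and the lactate exporter gene Slc16a3 rose from about 0.499 to 2.53 CPM in the mean (log2 fold change 2.33, adjusted p = 0.000189). Ldhb, the other lactate dehydrogenase, was at 5.96 to 7.92 CPM against 3.97 to 5.28 CPM and fell by 0.66 on the log2 scale (adjusted p = 0.0133). The values of Gapdh (11 to 49.3 against 30.6 to 488 CPM) and Aldoa (0.767 to 1.72 against 2.05 to 2.15 CPM) are uncertain, since genes with near-identical copies can lose reads in counting.

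Upstream sequences were printed for the members of these lists because HIF binds a short core, ACGTG, near many of its targets. The 250 bases before each RefSeq gene start (GRCm38.p6) were searched for ACGTG on both strands, so that CACGT on the printed strand also counts, and a match inside CACGTG, the E-box of other factors, is counted on each strand. Of the 35 members of the hypoxia response and glycolysis lists that rose, 32 had a window, and 22 of those held a match in at least 1 window. By window, 24 of 48 (50%) held a match, against 16.6% of 32851 windows of all genes. A match describes the letters only and is no measured binding site. The 4 genes with the most matches, ties going to the smaller adjusted p and windows that overlap an annotated exon left out, are given 5′ to 3′ on the gene's strand with the matches in capitals.
Ldha: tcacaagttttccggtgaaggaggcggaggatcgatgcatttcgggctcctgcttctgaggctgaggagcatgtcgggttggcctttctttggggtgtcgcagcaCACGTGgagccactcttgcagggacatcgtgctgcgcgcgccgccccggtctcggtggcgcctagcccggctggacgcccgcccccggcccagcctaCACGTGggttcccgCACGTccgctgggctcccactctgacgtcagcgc
Pgk1: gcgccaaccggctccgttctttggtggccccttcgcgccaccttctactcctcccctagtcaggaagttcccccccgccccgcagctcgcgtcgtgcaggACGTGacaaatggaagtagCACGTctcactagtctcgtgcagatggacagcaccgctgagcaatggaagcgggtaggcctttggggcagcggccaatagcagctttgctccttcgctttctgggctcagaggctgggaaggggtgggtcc
Hk2: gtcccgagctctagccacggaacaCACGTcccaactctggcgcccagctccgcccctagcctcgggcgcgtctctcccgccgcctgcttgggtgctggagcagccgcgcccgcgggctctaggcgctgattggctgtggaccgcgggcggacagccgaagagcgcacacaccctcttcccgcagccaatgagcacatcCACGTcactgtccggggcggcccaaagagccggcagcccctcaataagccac
P4ha2: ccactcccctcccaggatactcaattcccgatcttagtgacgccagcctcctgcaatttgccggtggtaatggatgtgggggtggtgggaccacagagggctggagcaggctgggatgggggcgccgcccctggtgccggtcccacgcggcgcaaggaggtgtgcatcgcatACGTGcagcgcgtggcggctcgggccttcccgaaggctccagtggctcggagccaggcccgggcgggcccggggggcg
The Ldha window is chr7:46845554-46845803 on the plus strand and holds the matches 145, 48 and 34 bases before the start, the first and second of them in CACGTG. The Pgk1 window is chrX:106186850-106187099 (plus strand), with matches 150 and 131 bases before the start. The Hk2 window is chr6:82774455-82774704 (minus strand), with matches 226 and 52 bases before the start. The P4ha2 window is chr11:54100674-54100923 (plus strand) and holds 1 match, 78 bases before the start.

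Of 24 nuclear-encoded genes of the respiratory chain tested, 2 rose and 3 fell, near the shares over all genes (10.4% and 11.8%), with a median log2 fold change of -0.06. Library size scaling called 1 higher and 6 lower. Ndufa4l2, a hypoxia-induced subunit relative that lowers respiration, was at 0.944, 2.33, 1.77 and 2.65 CPM at 21% O2 and at 20.1, 6.27 and 7.22 CPM at 0.5% O2. Hypoxic replicate 1 was highest, and the log2 fold change was 2.56 (SE 0.51, adjusted p = 0.0111). This call was lost with the replicate number as a block (adjusted p = 0.0789). Its counterpart Ndufa4 was at 57.4 to 66.9 CPM against 41.3 to 47 CPM (log2 fold change -0.44, SE 0.08, adjusted p = 0.00246). Of 12 mitochondrially encoded genes tested, 1 rose and 5 fell against the same background, the fallen ones including mt-Nd1 (log2 fold change -0.45, adjusted p = 0.00397) and mt-Nd5 (-0.49, adjusted p = 0.00278). The gene that rose was mt-Nd6, the only one of the 13 transcribed from the other mitochondrial strand (log2 fold change 0.75, SE 0.11, adjusted p = 0.000491). Since strand use in counting is not given, reads of mt-Nd6 and of the transcript opposite to it cannot be told apart.

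Whether micromasses at 21% O2 already show hypoxia genes was examined by setting their levels beside those of the other cultures, with CPM here on 1 scale for all 28 libraries. The summed level of the 30 hypoxia response genes was 3421, 4245, 4118 and 4326 CPM in the normoxic chondrocyte libraries. It was 1081 to 1124 CPM in normoxic proliferating, 1415 to 1488 CPM in normoxic osteoblast and 879.4 to 936.6 CPM in normoxic smooth muscle libraries. The normoxic chondrocyte libraries thus stood above every other normoxic library in this sum. Genes at high levels weigh most in it, among them the collagen enzyme genes P4ha1, P4ha2 and Plod2. All 22 genes of collagen modification tested were higher than in normoxic proliferating cultures (background 37.7%). Gene by gene, 28 of the 30 were higher than in normoxic proliferating, 24 than in osteoblast and 26 than in smooth muscle cultures. The part of collagen production in this was not tested. At 0.5% O2 the summed level in the chondrocyte libraries was 9902, 9330 and 9644 CPM, within the range of 8885 to 10438 CPM of the other hypoxic libraries. The 3 hypoxic smooth muscle libraries stood apart, with 13.2% to 14.5% mitochondrially encoded reads against at most 1.36% in any other library, and without them that range is the same.

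In normoxic chondrocyte against normoxic proliferating cultures, 25 of 29 hypoxia response genes tested were higher and 1 lower, with a median log2 difference of 1.91 (background 37.7% higher, 37.2% lower). Against normoxic osteoblast cultures, 22 of 30 were higher and 2 lower, with a median of 1.64 (background 59.7% called, 28.6% higher, 31.1% lower). Vegfa, at 225 ± 4.66 CPM (SD, n = 4) in normoxic chondrocyte cultures, was at 62.7 ± 1.36 CPM (n = 4) in proliferating and 38.4 ± 3.85 CPM (n = 4) in osteoblast cultures. P4ha1 was at 734 ± 45.8, 130 ± 9.16 and 156 ± 21.6 CPM in the same order. The sensor gene Egln3 was 1 of the 2 that were lower than in osteoblast cultures (log2 difference -1.72, adjusted p = 0.000129), at 110 ± 31.4 against 356 ± 44.3 CPM. Ldha and Pgk1 were not called against proliferating cultures (log2 differences of 0.02 and 0.14, adjusted p = 0.867 and 0.198), and library size scaling put them at -0.33 and -0.21. Of the 22 glycolysis genes, 11 were higher and 5 lower than in proliferating cultures (median 0.23), and 9 higher and 10 lower with library size scaling (median -0.12). Against osteoblast cultures 18 were higher and 2 lower (median 1.36). Library size scaling moved the median log2 difference of all genes to -0.35 against proliferating and to -0.19 against osteoblast cultures. It lowered the share of called genes that were higher from 50.3% to 34.7% and from 48% to 34.3%, and left 24 of 29 and 22 of 30 hypoxia response genes called higher. Medium and micromass format differ together between these cultures and cannot be told apart, while chondrocyte and osteoblast cultures had the same total of 10 days.

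The oxygen difference was then compared between cultures with an interaction term, the log2 difference between 0.5% and 21% O2 in chondrocyte cultures minus that in another culture. These tests and the comparison at 21% O2 share the 4 normoxic chondrocyte libraries. Against proliferating cultures, 27 of 30 hypoxia response genes had a smaller oxygen difference in chondrocyte cultures and 0 a larger one (background 43.5% called, 21.9% smaller, 21.6% larger). Against osteoblast cultures, 24 of 30 had a smaller one and 0 a larger one (background 37.8% called, 20.1% smaller, 17.7% larger). Of the glycolysis genes, 17 of 22 had a smaller difference in each of the tests, and 1 a larger one against proliferating cultures. Vegfa rose from 225 ± 4.66 to 487 ± 25.7 CPM in chondrocyte cultures, from 62.7 ± 1.36 to 289 ± 4.05 CPM in proliferating cultures and from 38.4 ± 3.85 to 282 ± 23.1 CPM in osteoblast cultures. Its interaction was -1.14 with proliferating (adjusted p = 2.46e-09) and -1.76 with osteoblast cultures (adjusted p = 6.68e-08). Ankrd37 went from 13 ± 2.45 to 67.5 ± 13.5 CPM in chondrocyte, from 3.36 ± 0.214 to 107 ± 7.81 CPM in proliferating and from 1.55 ± 0.227 to 45.4 ± 0.459 CPM in osteoblast cultures. Both genes thus started higher at 21% O2 in chondrocyte cultures. At 0.5% O2, Vegfa ended higher in chondrocyte than in both other cultures, while some other markers ended lower. Pgk1 went from 906 ± 137 to 2961 ± 127 CPM in chondrocyte and from 866 ± 28.2 to 5408 ± 293 CPM in proliferating cultures. Slc2a1 ended at 340 ± 47.2 CPM in chondrocyte, 590 ± 2.41 CPM in proliferating and 755 ± 149 CPM in osteoblast cultures.

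**Figure D3:**
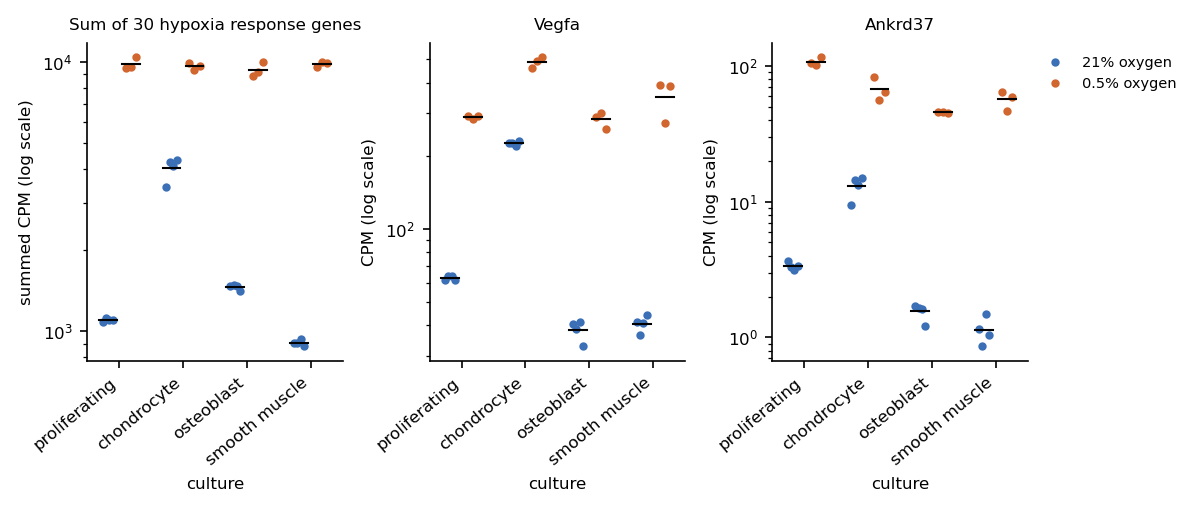
Summed CPM of the 30 hypoxia response genes, and CPM of Vegfa and of Ankrd37, on log axes in 4 kinds of culture, with 1 point per library (blue for 21% O2, n = 4, orange for 0.5% O2, n = 3) and bars at group means. The normoxic chondrocyte libraries (3421 to 4326 summed CPM) stand above the other normoxic libraries, and the hypoxic libraries of all cultures lie between 8885 and 10438.

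Cartilage genes went the other way. Of 16 chondrocyte genes tested, 13 fell and 0 rose at 0.5% O2 (background 11.8% called lower), with a median log2 fold change of -3.10. The master factor Sox9 was at 140, 177, 172 and 113 CPM at 21% O2 and at 180, 127 and 147 CPM at 0.5% O2. The groups overlapped, and the log2 fold change was 0.01 (SE 0.18, adjusted p = 0.986). Its partner gene Sox5 was at 15.7, 21, 20.6 and 22.1 CPM against 14.9, 11.1 and 9.93 CPM (log2 fold change -0.72, SE 0.16, adjusted p = 0.00784), a call lost with the replicate number as a block (adjusted p = 0.0565). Sox6 was at 1.18, 2.18, 2.84 and 0.895 CPM against 0, 0.148 and 0.28 CPM (log2 fold change -3.61, SE 0.73, adjusted p = 0.00533). In bulk RNA of this kind, fewer cells of a type and less RNA per cell cannot be told apart.

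Col2a1, the gene of type II collagen, was at 993, 4828, 5524 and 1915 CPM in the normoxic libraries and at 182, 241 and 352 CPM in the hypoxic ones. Normoxic replicates 2 and 3 were several times as high as replicates 1 and 4, yet the lowest normoxic library was above the highest hypoxic one. The log2 fold change was -3.68 (SE 0.76, adjusted p = 0.0221), and the call was lost without any 1 of the hypoxic libraries (adjusted p up to 0.0861). Col9a1, a chain of the type IX collagen that coats type II fibrils, was at 9.62, 52.5, 62.8 and 9.4 CPM against 0.181, 0.0371 and 0.187 CPM. Its log2 fold change was -7.85 (SE 1.48, adjusted p = 0.0162), from 3851 reads in the normoxic and 13 in the hypoxic libraries together. Col9a2 was at 16.2, 73.8, 84.6 and 14.6 CPM against 0.544, 0.742 and 1.24 CPM (log2 fold change -5.80, SE 1.11, adjusted p = 0.017). For both, the groups stayed apart, and the call was lost by limma-voom and without any 1 hypoxic library.

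Acan, the gene of the large proteoglycan aggrecan, was at 1528, 2407, 2148 and 1352 CPM against 427, 643 and 689 CPM (log2 fold change -1.66, SE 0.26, adjusted p = 0.00438). Hapln1, the link protein that ties aggrecan to hyaluronan, was at 287, 803, 784 and 465 CPM against 46.6, 58 and 92.7 CPM (log2 fold change -3.15, SE 0.51, adjusted p = 0.00893). The fall of both was seen in every hypoxic library. Matn4, a matrilin, was at 4.01, 11.4, 11.2 and 6.09 CPM against 0.483, 0.148 and 0.311 CPM (log2 fold change -4.64, SE 0.53, adjusted p = 0.000473). Comp, the cartilage oligomeric matrix protein, was at 23.2, 81.7, 67.2 and 23.5 CPM against 2.39, 3.12 and 4.89 CPM (log2 fold change -3.81, SE 0.70, adjusted p = 0.0145), a call lost by limma-voom and without hypoxic replicate 1 or 2 (adjusted p up to 0.0745). As with Col2a1, normoxic replicates 2 and 3 were the highest for both genes. Col11a1, a fibril-forming chain also made outside cartilage, was at 4129, 5683, 5505 and 5154 CPM against 4517, 4111 and 4230 CPM and was not called (log2 fold change -0.26, SE 0.11, adjusted p = 0.12), but was called lower with library size scaling and without normoxic replicate 1.

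The number of chondrocyte genes called lower was 13 in this test and was 8 by limma-voom, and 6, 5 and 7 without hypoxic replicate 1, 2 or 3. When at least 10 reads were required in every library, 5 of the 13 (Col9a1, Col9a3, Matn3, Matn4 and Sox6) had too few hypoxic reads to be tested, and the other 8 were all called lower. The median log2 fold change of the list stayed between -3.45 and -2.70 when any 1 library was left out.

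**Figure D4:**
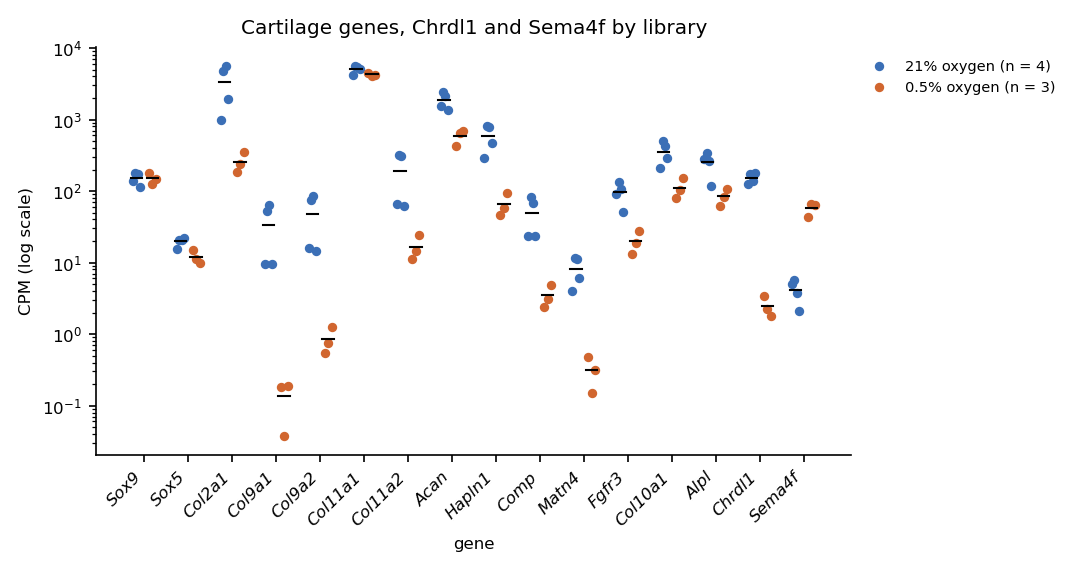
CPM on a log axis for 14 cartilage and hypertrophy genes and for Chrdl1 and Sema4f, with 1 point per library (blue for 21% O2, n = 4, orange for 0.5% O2, n = 3) and bars at group means. Sox9 overlaps between the groups (113 to 177 against 127 to 180 CPM), Col2a1 does not (993 to 5524 against 182 to 352 CPM), and normoxic libraries spread widely for Col9a1 (9.4 to 62.8 CPM).

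Of 11 genes of hypertrophic chondrocytes, the enlarged cells that precede bone, 6 fell, 0 rose and 5 were not called (all genes 10.4% higher and 11.8% lower). The log2 fold changes of the list ran from -3.40 to 0.61, with a median of -0.84. Col10a1, their type X collagen, was at 212, 493, 423 and 292 CPM against 79.4, 103 and 153 CPM (log2 fold change -1.67, SE 0.39, adjusted p = 0.0303), and the call was lost under 5 of 15 alternatives (adjusted p up to 0.0976). Panx3, a channel protein of prehypertrophic cells, was at 24.4, 42.8, 28.6 and 11.9 CPM against 1.9, 1.97 and 3.73 CPM (log2 fold change -3.40, SE 0.53, adjusted p = 0.00543). Both genes were lower in each hypoxic library than in each normoxic one. Of the other members that fell, Mmp13 lost its call without hypoxic replicate 3 (adjusted p = 0.055) and Alpl without any 1 hypoxic library. Runx2, a transcription factor of hypertrophy and of bone, was at 75.7 to 88.3 CPM against 72.1 to 84.1 CPM and was not called (log2 fold change -0.11, adjusted p = 0.371). Ihh was not tested, with at most 0.311 CPM in any library.

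Of 16 osteoblast genes tested, 9 fell and 0 rose (all genes 10.4% higher and 11.8% lower), with a median log2 fold change of -1.18. Dmp1, an acidic matrix protein of osteocytes, was at 42.2, 46.2, 36 and 48.3 CPM against 5.32, 9.09 and 11.3 CPM (log2 fold change -2.33, SE 0.24, adjusted p = 0.000367). Dlx5, a homeobox factor of bone formation, fell by 2.21 on the log2 scale (SE 0.15, adjusted p = 4.87e-06), from 34.1 to 49.6 CPM at 21% O2 to 7.52 to 10.2 CPM at 0.5% O2. Bglap, osteocalcin, had 69 reads in the normoxic and 1 read in the hypoxic libraries and shares sequence with Bglap2, so both are uncertain. Alpl, the alkaline phosphatase of mineralisation, was at 278, 342, 265 and 119 CPM against 62, 83.4 and 108 CPM. Its call (log2 fold change -1.57, SE 0.41, adjusted p = 0.0445) was lost under 9 of 15 alternatives, with adjusted p up to 0.156. Sp7, which commits cells to bone, was at 209, 175, 153 and 106 CPM against 156, 265 and 244 CPM (log2 fold change 0.46, adjusted p = 0.292), and Col1a1 was at 33099 to 39931 against 39878 to 46408 CPM (log2 fold change 0.23, adjusted p = 0.123). Neither was called, though DESeq2 called Col1a1 higher. Ibsp, the bone sialoprotein, was at 732, 1809, 1203 and 694 CPM against 428, 640 and 768 CPM. The groups overlapped, and it was not called (log2 fold change -0.86, SE 0.42, adjusted p = 0.219), except with the replicate number as a block (adjusted p = 0.0204). Without hypoxic replicate 3, 5 members were called lower. When at least 10 reads were required in every library, Bglap, Bglap2, Mepe and Phex were not tested, and the other 5 of the 9 were called lower.

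Collagens outside the cartilage list and the enzymes that modify collagen were counted separately. Of 12 fibrillar and associated collagen genes tested, 3 fell and 0 rose (all genes 10.4% higher and 11.8% lower): Col27a1 (log2 fold change -1.99, adjusted p = 0.00247), Col6a2 (-0.63, adjusted p = 0.0012) and Col6a1 (-0.48, adjusted p = 0.00376). Library size scaling called 5 of them lower. Of 22 genes that hydroxylate, fold or cross-link collagen, 9 rose and 3 fell, the latter near the background of 11.8%, with a median log2 fold change of 0.18. P4ha2, a collagen prolyl hydroxylase subunit, was at 446, 486, 465 and 435 CPM at 21% O2 and at 1202, 1256 and 1339 CPM at 0.5% O2 (log2 fold change 1.47, SE 0.07, adjusted p = 3.17e-07). Plod2, which hydroxylates telopeptide lysines for cross-links, was at 564, 588, 583 and 470 CPM against 1159, 1368 and 1327 CPM (log2 fold change 1.22, SE 0.09, adjusted p = 5.84e-06). For both enzymes the groups were far apart. Loxl2 rose with a log2 fold change of 1.18 (adjusted p = 0.000805), while its relative Loxl1 fell by 0.76 on the log2 scale (adjusted p = 2.13e-05). P4ha1, P4ha2 and Plod2 are also in the hypoxia response list.

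Of 23 proteoglycan and glycan synthesis genes tested, 5 rose and 9 fell (all genes 10.4% higher and 11.8% lower). Lum, lumican, was at 6.46, 12.1, 13.2 and 5.44 CPM against 0.151, 0.111 and 0.342 CPM (log2 fold change -5.47, SE 0.51, adjusted p = 0.000125). Xylt1, which starts glycosaminoglycan chains, was at 64.7, 115, 107 and 94.1 CPM against 19.1, 17.1 and 16.6 CPM (log2 fold change -2.43, SE 0.20, adjusted p = 0.000121). Both were lower in every hypoxic library. Lum, under 1 CPM in the hypoxic libraries, passed the filter through its normoxic reads, so the size of its fall rests on few hypoxic reads. Vcan, the versican of loose matrix, rose instead, from 709 to 781 CPM to 1311 to 1477 CPM (log2 fold change 0.88, SE 0.07, adjusted p = 1.09e-05). Among matrix proteases and inhibitors, against the same background, 1 of 13 rose, Adamts5 (log2 fold change 1.15, adjusted p = 6.03e-05), and 4 fell, Mmp2 among them (log2 fold change -0.59, adjusted p = 0.00075).

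Chrdl1 (ENSMUSG00000031283, GRCm38 chrX:143285674-143394262, minus strand, GENCODE M21) encodes chordin-like 1, a secreted protein that binds BMPs. It was at 124, 171, 138 and 179 CPM in the normoxic libraries and at 3.38, 2.26 and 1.8 CPM in the hypoxic ones. This was the largest fall among the genes that met the naming rule, 61.2-fold, with a log2 fold change of -5.94 (SE 0.24, adjusted p = 3.38e-06), and it was called under all 15 alternatives. On the scale of all 28 libraries it was at 162 ± 28.1 CPM in normoxic chondrocyte, 104 ± 18.4 CPM in normoxic smooth muscle, 41.4 ± 3.15 CPM in normoxic osteoblast and 1.02 ± 0.368 CPM in normoxic proliferating cultures (SD, n = 4 each). At 0.5% O2 it was at 2.64 ± 0.876, 0.734 ± 0.659, 53 ± 4.4 and 0.0907 ± 0.0501 CPM in the same order (n = 3 each). For the hypoxic smooth muscle libraries, the part of their high mitochondrial share in this level was not tested. The oxygen difference in chondrocyte cultures was thus opposite in sign to that in osteoblast cultures (interaction -6.28, adjusted p = 9.64e-10), and its difference from proliferating cultures was not called (interaction -2.50, adjusted p = 0.0917).

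Of 10 BMP antagonist genes tested, 5 fell and 1 rose (all genes 10.4% higher and 11.8% lower), so the share that rose is at the background. Nog, noggin, was at 6.05, 6.27, 5.01 and 2.38 CPM against 1.42, 1.52 and 1.34 CPM (log2 fold change -1.79, SE 0.32, adjusted p = 0.00226), and its call was lost with all 8 groups in the fit (adjusted p = 0.291). Fst, follistatin, was at 54.6, 60.8, 60.3 and 93.3 CPM against 41, 28.1 and 25 CPM (log2 fold change -1.10, SE 0.25, adjusted p = 0.0191), a call lost under 3 of 15 alternatives, among them without hypoxic replicate 2 or 3 (adjusted p up to 0.0753). The call of Bmper, another member that fell, was lost under 7 of 15 alternatives, without hypoxic replicate 2 or 3 among them (adjusted p up to 0.141). The gene that rose was the follistatin relative Fstl3 (log2 fold change 0.83, SE 0.06, adjusted p = 5.01e-06), while Grem1 and Chrd were not called. Of 14 genes that respond to BMP or TGF-beta, 6 rose and 2 fell, the latter near the background, with a median log2 fold change of 0.33. Atoh8 rose with a log2 fold change of 0.85 (adjusted p = 0.000377) and Id2 with 0.70 (adjusted p = 0.0191), whereas Id1 fell by 0.34 on the log2 scale (adjusted p = 0.0216) and Id3 was not called (-0.02, adjusted p = 0.887). The call of Id2 was lost under 5 of 15 alternatives, with adjusted p up to 0.0841, and that of Atoh8 with all 8 groups in the fit (adjusted p = 0.0608).

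Sema4f (ENSMUSG00000000627, GRCm38 chr6:82911885-82939769, minus strand, GENCODE M21) encodes a transmembrane class 4 semaphorin, a family of guidance cues read by plexins and neuropilins. It was at 5.05, 5.73, 3.81 and 2.1 CPM in the normoxic libraries and at 43.4, 66.4 and 63.8 CPM in the hypoxic ones. The lowest hypoxic library was several times above the highest normoxic one, with a log2 fold change of 3.79 (SE 0.31, adjusted p = 0.000212) that was called under all 15 alternatives. On the scale of all 28 libraries Sema4f was at 61.4 ± 13.2 CPM in hypoxic chondrocyte cultures (n = 3) and at most 2.11 CPM in any library outside the chondrocyte groups. It was at 0.0625 ± 0.0485 CPM in normoxic (n = 4) and 1.66 ± 0.389 CPM in hypoxic osteoblast cultures (n = 3). It was higher in normoxic chondrocyte than in normoxic osteoblast cultures (log2 difference 6.05, adjusted p = 1.22e-05). The interaction tests did not call a difference of its oxygen effect from proliferating (-1.88, adjusted p = 0.286) or osteoblast cultures (-0.87, adjusted p = 0.383).

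Among 17 semaphorin genes tested, 6 rose and 3 fell (all genes 10.4% higher and 11.8% lower). Sema3c, a secreted semaphorin of neural crest cells of the outflow tract, was at 258, 270, 317 and 300 CPM against 563, 658 and 610 CPM (log2 fold change 1.09, SE 0.09, adjusted p = 7.67e-06). Sema3g went the other way, from 2.74, 3.13, 3.14 and 3.58 CPM to 0.332, 0.0371 and 0.373 CPM (log2 fold change -3.60, SE 0.43, adjusted p = 0.000154). The groups did not overlap for either gene. Sema3g, under 1 CPM in the hypoxic libraries, passed the filter through its normoxic reads, and the size of its fall rests on few hypoxic reads. Of 10 receptor genes, 4 rose and 0 fell against the same background, with Nrp2 (log2 fold change 0.71, adjusted p = 4.98e-05) and Plxna4 (0.64, adjusted p = 0.000444) ahead of Plxnc1 and Nrp1. The call of Plxnc1 was lost under 8 of 15 alternatives (adjusted p up to 0.23), that of Plxna4 with all 8 groups in the fit (adjusted p = 0.0944) and that of Nrp1 without hypoxic replicate 2 (adjusted p = 0.061).

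Of 32 cell cycle genes tested, 24 fell and 0 rose at 0.5% O2 (all genes 10.4% higher and 11.8% lower), with a median log2 fold change of -0.72. Mki67, a marker of cycling cells, was at 128, 122, 132 and 82.1 CPM against 56.2, 67.4 and 66.5 CPM (log2 fold change -0.87, SE 0.16, adjusted p = 0.00652). Mcm6, part of the replicative helicase, was at 68.4, 64.2, 68.4 and 45.6 CPM against 27, 32.6 and 31.4 CPM (log2 fold change -1.02, SE 0.14, adjusted p = 0.000908). Normoxic replicate 4 was the lowest of its group for both and lay nearer the hypoxic libraries. Top2a, a topoisomerase of dividing cells, was at 149, 163, 177 and 98.7 CPM against 87, 103 and 99.3 CPM and was not called (log2 fold change -0.61, SE 0.19, adjusted p = 0.056), but it was called under 5 of 15 alternatives (DESeq2, library size scaling, all 8 groups in the fit, the replicate block and without normoxic replicate 4). The members called lower numbered 17 to 30 when any 1 library was left out.

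Of 18 sterol synthesis genes tested, 15 fell and 0 rose (all genes 10.4% higher and 11.8% lower), with a median log2 fold change of -0.62. Idi1, which makes isoprenoid building blocks, was at 24.7, 26.2, 31 and 32.9 CPM against 15.4, 11.4 and 12.5 CPM (log2 fold change -1.13, SE 0.13, adjusted p = 0.000154). Dhcr7, the last step towards cholesterol in one branch, was at 10.2, 15.3, 15.9 and 15.7 CPM against 6.07, 6.79 and 5.69 CPM (log2 fold change -1.21, SE 0.17, adjusted p = 0.000415). Both were lower in each hypoxic library than in each normoxic one. The members called lower numbered 9 without normoxic replicate 2, normoxic replicate 3 or hypoxic replicate 3. Of 17 genes of the ATF4 and unfolded protein response tested, 5 rose and 1 fell against the same background, and the chaperone gene Hspa5 had the largest rise among them (log2 fold change 0.46, adjusted p = 0.00231).

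**Figure D5:**
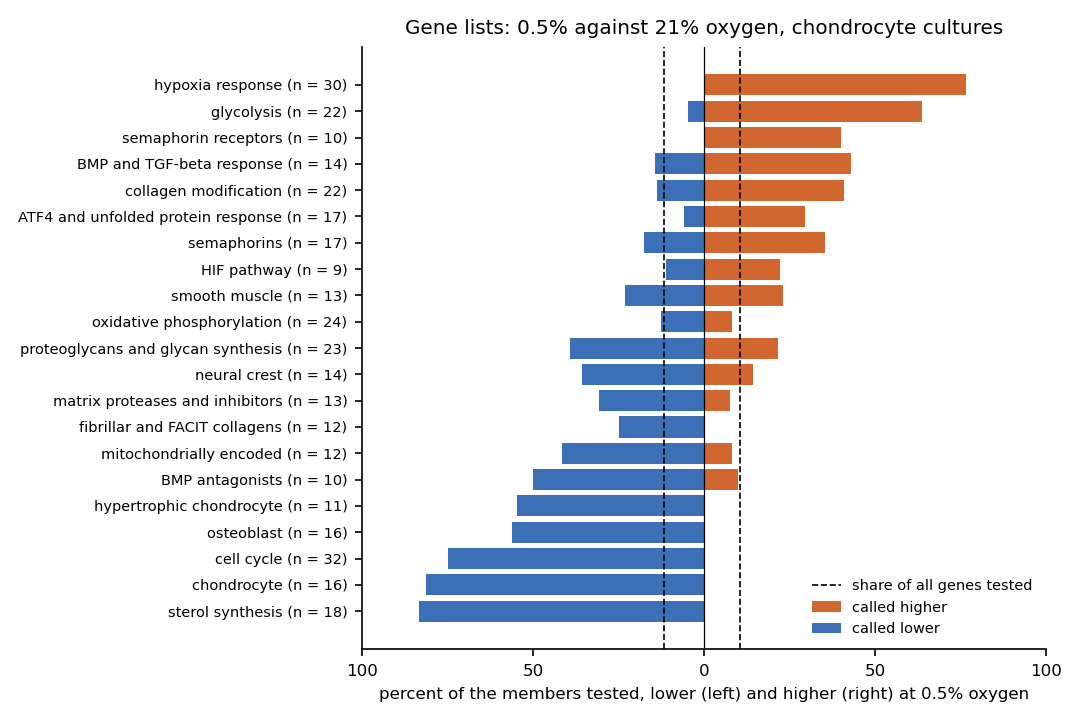
Percent of the members tested that were called higher (orange, to the right) or lower (blue, to the left) at 0.5% O2 in lists with at least 9 members tested, with dashed lines at the shares of all genes tested (10.4% higher, 11.8% lower). Hypoxia response (23 of 30 higher) and glycolysis (14 of 22 higher) stand at the top, and sterol synthesis (15 of 18 lower) and chondrocyte genes (13 of 16 lower) at the bottom.

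Markers of other cell types were read as a check on the cultures. The summed level of 6 endothelial genes was 1.65 to 3.92 CPM in the normoxic and 5.16 to 7.34 CPM in the hypoxic libraries, with Cdh5, Kdr, Tek and Emcn below 1 CPM in all 7, and Pecam1 alone was called higher (log2 fold change 1.40, adjusted p = 0.00205, or 0.0505 with all 8 groups in the fit). The summed levels of 6 haematopoietic genes (1.27 to 2.15 against 1.72 to 2.82 CPM) and 6 skeletal muscle genes (1.95 to 3.57 against 3 to 4.17 CPM) were as low, with none called. The 9 adipocyte genes summed to 13 to 17.6 CPM against 9.06 to 10.6 CPM, with Adipoq, Cidec and Lep at 0. Of the 4 adipocyte genes tested, Fabp4 (log2 fold change -1.55, adjusted p = 0.00769) and Cebpa (-1.24, adjusted p = 0.0205) fell. The call of Fabp4 was lost by limma-voom, and that of Cebpa under 4 of 15 alternatives, among them without hypoxic replicate 1 or 2. Of 13 smooth muscle genes tested, 3 rose and 3 fell (background 10.4% and 11.8%). Cnn1, a calponin, rose from 2.44 to 3.44 CPM to 6.45 to 8.43 CPM (log2 fold change 1.36, adjusted p = 0.000304), and Mylk, a myosin kinase, fell from 15.5 to 22.6 CPM to 3.3 to 4.38 CPM (log2 fold change -2.39, adjusted p = 3.73e-06). Of 4 tendon genes tested, 1 rose and 2 fell, and of 4 neuron and Schwann cell genes, 2 fell. Among the tendon genes, the call of Mkx was lost under 8 of 15 alternatives, without any 1 hypoxic library among them. That of Fmod was lost with all 8 groups in the fit (adjusted p = 0.609). The part of such cells in the changes above was not tested.

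Of 14 neural crest genes tested, 2 rose, 5 fell and 7 were not called (all genes 10.4% higher and 11.8% lower), the share that rose being near the background. The log2 fold changes ran from -2.81 to 1.03 with a median of 0.09, so the list did not fall as a whole. Msx1, a homeobox factor of jaw and palate mesenchyme, was at 35.6, 36.6, 37.9 and 39.5 CPM against 3.96, 6.45 and 5.63 CPM (log2 fold change -2.81, SE 0.15, adjusted p = 5.13e-07). Ednra, the endothelin receptor of the jaw, was at 14, 11.9, 12 and 6.34 CPM against 1.36, 2.34 and 1.68 CPM (log2 fold change -2.63, SE 0.30, adjusted p = 0.000212). Both groups of libraries were well apart for each gene. The early crest factors Sox10 and Foxd3 had no read in any of the 7 libraries.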

How the data were processed

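The 28 libraries of polyadenylated RNA were mapped to groups by their titles, and this report uses the 4 normoxic and 3 hypoxic chondrocyte libraries, with proliferating and osteoblast libraries for tests and smooth muscle libraries for levels. Counts per gene were deposited by the authors as whole numbers for 54429 Ensembl identifiers. Per the submitters' processing notes, HISAT2 2.0.5, StringTie 1.3.3b and featureCounts 1.5.0-p3 and the build mm10 were used, and no role, order or strand setting is given in the sources used here. GENCODE M21 (GRCm38) gave a symbol and position to 54314 identifiers. Log2 fold changes and p-values for the same comparison come from the authors' deposited table of 17102 genes, per the file headers, which do not say whether those p-values are adjusted. A further 70 columns of normalised values of single libraries in the comparison tables were not used.

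Counts were tested with edgeR 4.0.16 under R 4.3.3 (TMM scaling, filterByExpr by group with at least 10 counts in a library of median size and 15 in total, robust quasi-likelihood test, two-sided, Benjamini-Hochberg adjustment over all genes tested, called under 0.05). Each comparison was fitted to its own groups, and interactions to the 4 groups concerned. SE is the log2 fold change divided by the square root of F. Alternatives were DESeq2 1.42.0, limma-voom (limma 3.58.1, statmod 1.5.0), RLE and library size scaling, other filters, all 8 groups in 1 fit, a replicate block and leaving out each library. On counts simulated for 14205 genes with the hypoxic and normoxic chondrocyte library sizes, the test recovered 56% of 50 genes changed 1.5-fold, 66% changed 2-fold, 94% changed 4-fold and 98% changed 8-fold, with 10 false calls among 167. The changed genes were drawn only from genes above a minimum mean count, and were far fewer than the genes called in the data. The recovery therefore does not cover low-count genes and may differ from that in the data. Depth of 25998284 to 34444072 counts limits precision for genes under about 1 CPM.

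Genes were named by rule: the 10 largest rises and falls in log2 fold change and the 5 largest in CPM among called genes with a mean of at least 10 counts in both groups, groups not overlapping and no predicted, mitochondrial or small RNA symbol. Fixed marker genes and up to 4 members of each of 27 lists were added, and other list members are named where a count is spelled out. Ero1a was matched by its older symbol. Some genes that the rule names are not reported here. The comparison, its members and the lists were chosen with earlier results of these data known. Sequences are from RefSeq (GRCm38.p6).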

Additional observations from a re-analysis of the deposited data

Results flagged for a closer look

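In 5 of 132 named genes tested, 1 normoxic chondrocyte library stood apart from the other 3 of its group by Dixon's criterion, which chance alone passes in about 1 in 20 groups. Replicate 1 was low for Egln3 (60.2 CPM, ratio 0.836) and Dhcr7 (10.2 CPM, ratio 0.903). Replicate 4 was low for the replication factor Cdc6 (4.27 CPM, ratio 0.855) and high for Fst (93.3 CPM, ratio 0.84) and Trib3 (163 CPM, ratio 0.918).

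The oxygen difference of 21 of 38 marker genes tested differed between chondrocyte and proliferating cultures by the interaction term (edgeR adjusted p from 2.46e-09 to 0.049), against 43.5% of 15310 genes. Among hypoxia and HIF genes the log2 interaction was negative for Vegfa (-1.14), Slc2a1 (-1.70), Pdk1 (-1.54), Bnip3 (-2.74), Car9 (-4.55), Egln3 (-3.07), Ndrg1 (-3.10), Ankrd37 (-2.67), P4ha1 (-1.48), Pgk1 (-0.98), Hif1a (-0.46) and Epas1 (-3.26). Among the other markers it was negative for Sox9 (-0.70), Sox5 (-1.28), Acan (-3.24), Hapln1 (-5.30), Mmp13 (-1.72), Spp1 (-0.67), Col1a1 (-0.56) and Mki67 (-0.82), and positive for Runx2 (0.32). Epas1 was at most 1.04 CPM and Hapln1 at most 0.358 CPM in proliferating cultures, and Car9 was at most 0.0807 CPM in the normoxic ones, so their terms rest on few reads there.

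The oxygen difference of 28 of 38 marker genes tested differed between chondrocyte and osteoblast cultures by the interaction term (edgeR adjusted p from 9.64e-10 to 0.0322), against 37.8% of 15199 genes. Among hypoxia and HIF genes the log2 interaction was negative for Vegfa (-1.76), Slc2a1 (-2.03), Pdk1 (-1.48), Bnip3 (-2.70), Car9 (-2.41), Ndrg1 (-2.13), Ankrd37 (-2.49), P4ha1 (-1.66), Ldha (-2.01), Pgk1 (-1.52) and Hif1a (-0.77). Among the other markers it was negative for Sox5 (-2.65), Sox6 (-3.21), Acan (-2.74), Comp (-3.47), Col10a1 (-4.84), Ibsp (-6.74), Mmp13 (-4.86), Alpl (-4.26), Spp1 (-3.05), Runx2 (-1.24), Pparg (-2.63), Mki67 (-4.0), Top2a (-2.79) and Chrdl1 (-6.28), and positive for Col11a1 (0.59), Acta2 (0.60) and Scx (2.02). Normoxic osteoblast replicate 4 stood apart in cartilage genes, with Col2a1 at 775 CPM against 35.6, 38.1 and 43.6 CPM in the others. It also stood apart in Sp7 (45.4 against 0.67 to 1.36 CPM), Alpl (40 against 1.39 to 2.52 CPM) and Ldha (311 against 153 to 167 CPM). Without it the interactions of Col2a1 (-4.52, adjusted p = 0.00133), Col9a1 (-6.73, adjusted p = 0.0148) and Hapln1 (-4.07, adjusted p = 0.000511) were called too.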

How the results depend on the processing

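The count of 3157 called genes was 2091 without hypoxic replicate 3 and ran from 2091 to 3359 over the 7 libraries left out in turn. With the replicate number as a block it was 2795. Libraries that share a number did not deviate together (correlations across genes of -0.0596, 0.081 and -0.134 for numbers 1, 2 and 3), and not every library correlated best with its own number, so the numbers were not read as pairs. DESeq2 called 3598 genes and limma-voom 3070. The chondrocyte list had 13 members called lower, 8 by limma-voom and 8 with at least 10 counts in every library, and 5 to 14 with 1 library left out. The osteoblast list had 9 called lower, 5 with at least 10 counts in every library and 5 to 8 with 1 library left out. The sterol synthesis list had 15, and 9 to 16 with 1 library left out. In normoxic chondrocyte against proliferating cultures, library size scaling turned the log2 differences of Ldha and Pgk1 to -0.33 and -0.21, by construction of the scaling, which lowers every gene there. With at least 10 counts in every library, 5 chondrocyte and 4 osteoblast members called lower had too few reads to be tested, and none of those tested lost its call. For the other cases the cause was not tested. Over the alternative fits of the 132 named genes, 1817 had the same direction and stayed on the same side of the threshold, called or not, 134 lost a call, 11 gained one and 0 reversed. Genes under about 1 CPM rest on few reads.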

Other observations

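H19 and Mest, 2 of the 10 largest falls, are imprinted genes, which are read from 1 parental copy. A list of 25 imprinted genes written after these values had been seen was therefore described, with no test of the list. Of 20 tested, 4 rose and 3 fell, with a median log2 fold change of 0.14 (background 10.4% higher and 11.8% lower). Of the 3 falls, 2 are the genes that prompted the list. Igf2r, the third that fell, did so by 0.80 on the log2 scale (SE 0.09, adjusted p = 8.54e-05). The rises were those of Dlk1 (log2 fold change 1.31, adjusted p = 0.00174), Rian (0.91, adjusted p = 7.67e-06), Ndn (0.77, adjusted p = 0.0248) and Peg10 (0.70, adjusted p = 0.0256). Meg3, which lies beside Rian and Dlk1, was not called (0.21, adjusted p = 0.36).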
